A study of Mus musculus with 5480 samples.

Results

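Airway smooth muscle cells of the mouse lung were compared between postnatal day 7 (P7) and postnatal day 21 (P21). The comparison takes the cells that the submitters' subtype label calls Early airway smooth muscle at P7 and those it calls Airway smooth muscle at P21, both from mice kept in normal air. These were 252 of the 5480 mesenchymal cells in the series. At P7 the female gave 75 cells and the male 64, and at P21 the female gave 58 and the male 55. The study sorted single mesenchymal cells from distal lung by flow cytometry and sequenced them in plates, from mice of either sex at several ages and after breathing extra oxygen from birth on. Each group held 1 female and 1 male mouse, and the strain, any transgene and the oxygen level are not given in the sources used here. No treatment other than normal air is named for the 4 mice compared. The reads of a mouse's cells were summed, so a replicate is a mouse. Another 4 libraries, from early airway smooth muscle cells at postnatal day 1 (P1) in normal air and at P7 in hyperoxia, entered the fit to estimate the spread between mice.

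Airway smooth muscle wraps the conducting airways and sets their width by contracting. Its force comes from smooth muscle actin sliding on smooth muscle myosin, with calponin and other proteins bound to the filaments, and the transcription of these genes is driven by serum response factor with its partner myocardin. During lung growth the same cells also secrete elastin and other matrix proteins and exchange signals with the epithelium, which makes hedgehog ligands.

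The subtype label was checked against 10 airway smooth muscle markers, and the data at P21 went partly against it. Early airway smooth muscle cells at P7 had a median of 9 of the 10 markers with a read per cell in the female and 8 in the male, each cell thinned to 100000 reads. The P21 cells had a median of 5 in the female and 4 in the male. Hhip, the marker that separated airway from vascular smooth muscle in these data, was present in 96.6% and 96.4% of the P21 cells. It was also read in 44.1% and 32.6% of adventitial and in 24.7% and 18.9% of alveolar fibroblasts at P21. A read of it alone therefore does not tell airway muscle from fibroblasts. Cnn1 was found in only 6.90% and 9.09% of the P21 cells. The P21 cells are therefore called "cells labelled Airway smooth muscle" or "P21 cells" here, by their label and not by their contractile genes. A further 6 cells at P21, 4 from the female and 2 from the male, kept the Early airway smooth muscle label and are described separately. No cell at P7 had the later label, so the label and the age cannot be told apart in the main comparison.

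The summed libraries held 102846730 reads in the P7 female, 62487781 in the P7 male, 51077950 in the P21 female and 44910288 in the P21 male. A single cell of these 4 mice held 67271 to 3009006 reads. Fewer genes were detected per cell at P21: at 100000 reads per cell the medians were 3159 and 2990 genes in the P7 female and male, and 1886.5 and 1738.5 in the P21 female and male. The exact two-sided permutation test over the 4 mice gave p = 0.333 for that difference, which is the smallest p this design allows. The males of P7 and P21 (and of P1) were on 1 sequencing run, while the females of P7 and P21 were on different runs, so the male difference is within a run and the female difference is not. Summed levels of markers for endothelial, immune and erythroid cells stayed at or below 11.3 CPM (counts per 1000000 reads) in all 4 libraries, and epithelial markers were at 99.3 and 52.4 CPM at P7 and at 11.8 and 37.5 CPM at P21.

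**Figure D1:**
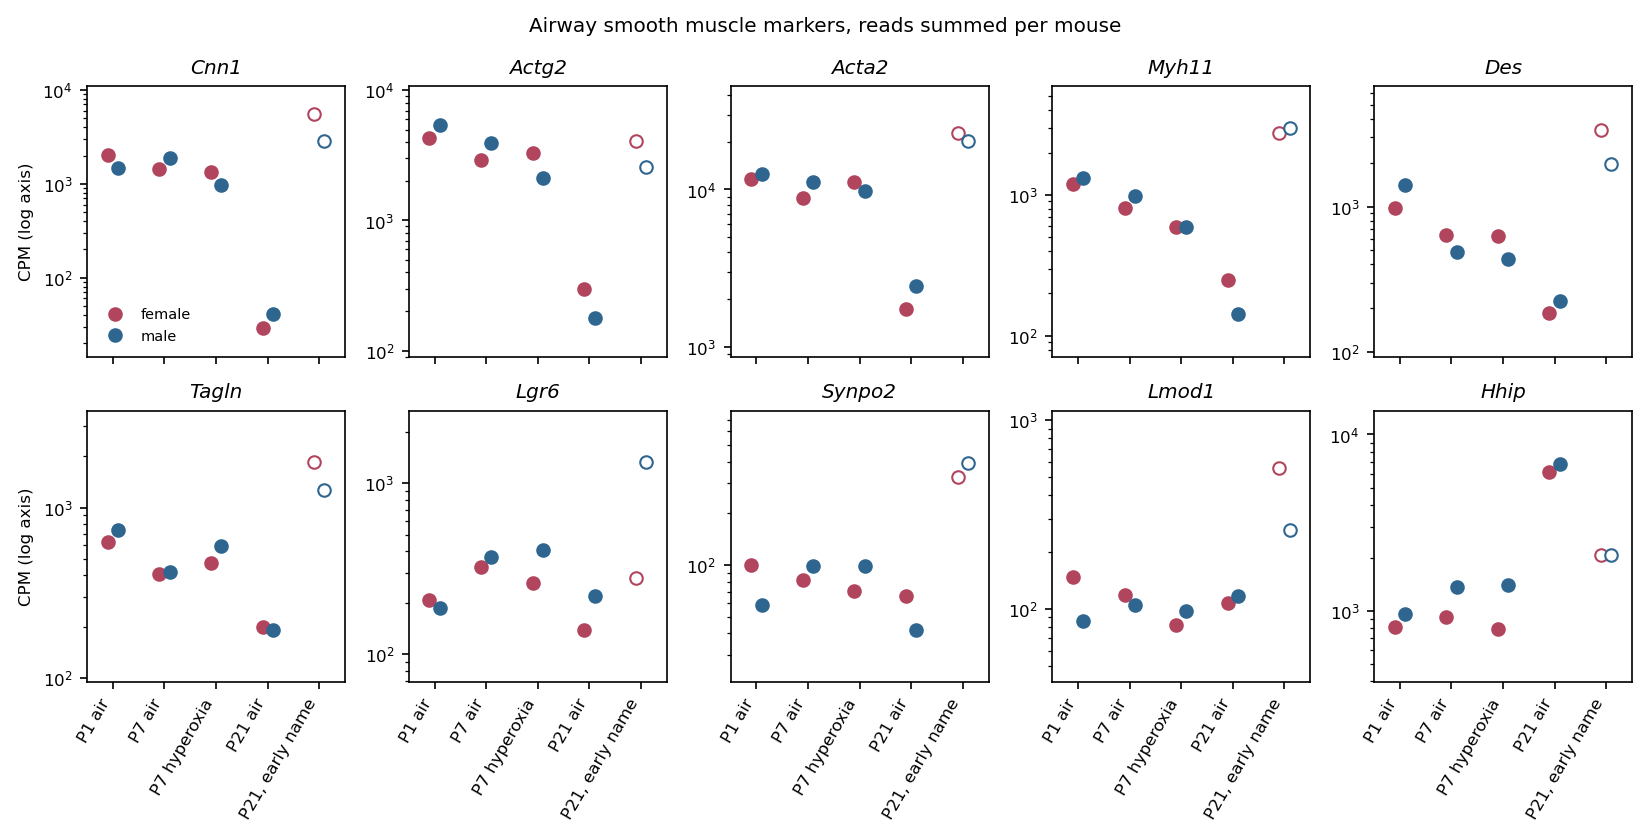
Level in CPM (log axis) of the 10 airway smooth muscle markers, 1 panel per gene and 1 point per mouse (female red, male blue), for early airway smooth muscle at P1, P7 and P7 in hyperoxia, for P21 cells, and as open points for the 6 early-labelled cells at P21 (CPM without TMM scaling). Cnn1 lies at 1439.8 and 1861 CPM at P7, at 28.7 and 40.8 CPM in the P21 cells and at 5501 and 2877 CPM in the early-labelled cells at P21, while Hhip is highest in the P21 cells.

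In edgeR's quasi-likelihood test, 191 of 13456 genes (1.42%) passed an adjusted p of 0.05 between the P21 and the P7 cells. Of these 119 were higher at P21 (0.884% of the genes tested) and 72 were lower (0.535%). The median log2 fold change over all genes tested was -0.11, and 1490 genes had an unadjusted p under the same threshold. The female pair and the male pair moved the same way in all 191, and in none of them did the values of the P7 and P21 mice overlap. With 2 mice a side non-overlap is common: it holds for 5899 of the 13456 genes tested (43.8%), so it adds little for a single gene. The count depended on the fit: it was 60 without the P7 male, 68 without the P7 female and 311 without the P21 female. DESeq2 on the same libraries called 1280 genes, 604 higher and 676 lower, and these included all 191. The genes with the smallest adjusted p, chosen here after their values were seen, were Cnn1, Gsn, Errfi1 and Mgp.

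Throughout, values are TMM-normalized CPM unless another scale is named, and pairs of values give the female mouse before the male. A log2 fold change is P21 minus P7 with its standard error (SE) from edgeR, and q is the Benjamini-Hochberg adjusted p over all 13456 genes. P-values measure the spread between these mice alone. Where both mice of an age have 0 reads, a limit of 3 reads over the 2 mice together is used for a fold, which is 0.0168 CPM at P7 and 0.0382 CPM at P21, counting error only.

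Several major contractile protein genes fell in the P21 cells, and most of their list did not pass. Of the 24 genes in the list of smooth muscle contractile proteins, 4 fell (Cnn1, Actg2, Acta2 and Myh11), none rose and 20 did not pass. The median log2 fold change of the list was -1.28 beside -0.11 over all genes, and 22 of the 24 fitted changes were below 0. Cnn1, which encodes the actin-binding protein calponin, was at 1439.8 and 1861 CPM at P7 and at 28.7 and 40.8 CPM at P21. Both P21 mice lay far below both P7 mice, and the log2 fold change was -5.57 (SE 0.431, q = 0.00167). Actg2, an enteric-type smooth muscle actin, was at 2898 and 3946 CPM at P7 and at 296 and 179 CPM at P21 (log2 fold change -3.88, SE 0.417, q = 0.00484). Acta2, the alpha smooth muscle actin, stood at 8787 and 11193 CPM at P7 and at 1725 and 2442 CPM at P21, so that it stayed among the abundant transcripts (log2 fold change -2.27, SE 0.314, q = 0.0111). Myh11, the smooth muscle myosin heavy chain, went from 803 and 987 CPM to 247 and 142 CPM (log2 fold change -2.21, SE 0.371, q = 0.0231). The male mice, which shared a run, gave differences of -5.48, -4.45, -2.20 and -2.78 in that order on the log2(CPM + 1) scale. Reads of near-identical actin genes may have been shared between Acta2, Actg2 and Actc1, since the counting rule is not given in the sources used here.

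The other markers gave values that did not pass. Des, the intermediate filament protein desmin, was at 634 and 486 CPM at P7 and at 186 and 226 CPM at P21 (log2 fold change -1.44, q = 0.134). Tagln, an actin-binding protein known as transgelin, was at 407 and 421 CPM and then at 201 and 191 CPM (log2 fold change -1.08, q = 0.216). Lmod1, a protein that seeds actin filaments, was at nearly the same level at each age, with 118 and 105 CPM at P7 and 107 and 118 CPM at P21. The spread of its difference is wide (log2 fold change 0.02, SE 0.448). Synpo2 and Lgr6, the latter a receptor for R-spondins, had log2 fold changes of -0.78 and -0.99 (q = 0.647 and 0.349).

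Leaving out a mouse moved some of these calls. Without the P7 male the adjusted p was 0.104 for Acta2 and 0.171 for Myh11, and without the P7 female it was 0.0562 and 0.0767. Without the P21 male it was 0.0898 for Myh11. Cnn1 and Actg2 passed in all 15 alternatives. The 6 cells at P21 with the early label, joined to the P21 cells, brought the log2 fold change of Cnn1 to -2.34 (adjusted p 0.0162) and that of Actg2 to -2.91, and left Acta2 (adjusted p 0.0535) and Myh11 (0.147) above the threshold.

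A sum over cells falls alike when fewer cells hold a transcript and when each cell holds less of it, so the cells were also counted. Cnn1 had a read in 90.7% and 87.5% of the P7 cells and in 6.90% and 9.09% of the P21 cells, that is, in 4 and 5 cells. Actg2 went from 98.7% and 98.4% of cells to 32.8% and 32.7%. Myh11 went from 97.3% and 96.9% to 41.4% and 36.4%. Acta2 was in every P7 cell and in 77.6% and 69.1% of the P21 cells. At equal depth of 100000 reads the shares for Cnn1 were 88.0% and 85.7% at P7 and 6.90% and 5.56% at P21.

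**Figure D2:**
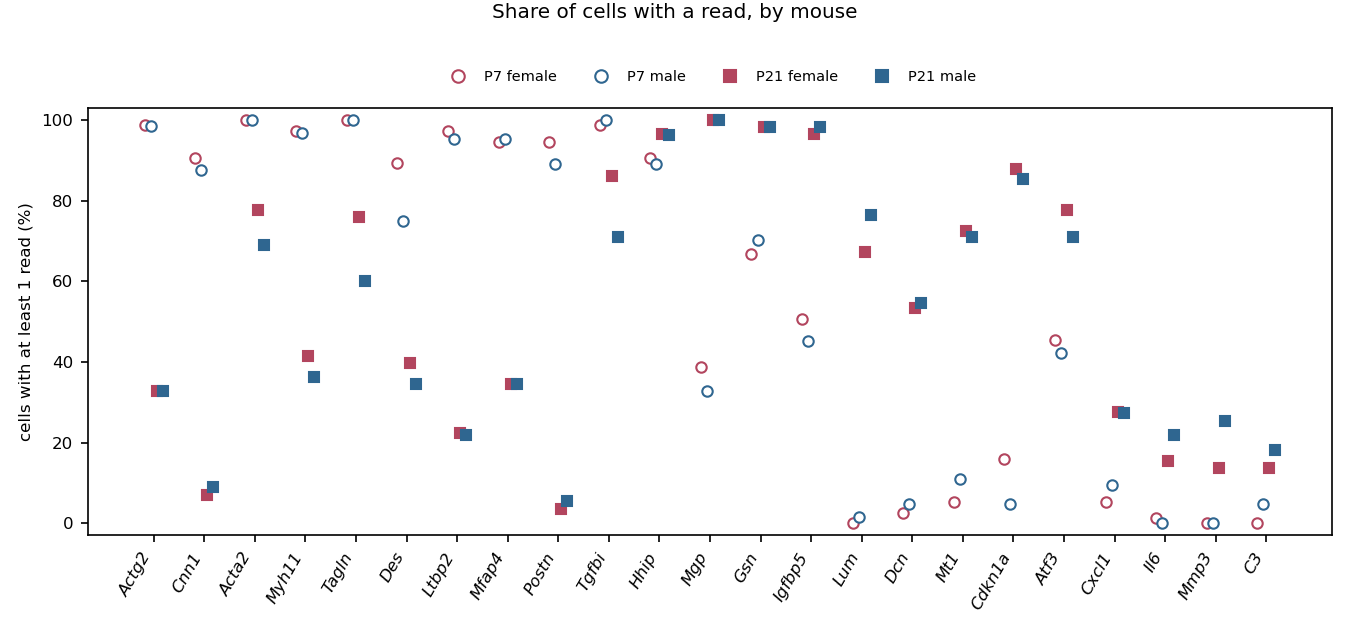
Share of cells with at least 1 read (percent) for 23 named genes, with open circles for P7 and filled squares for P21, females red and males blue. Cnn1, Actg2 and Myh11 had a read in most P7 cells and in a minority of P21 cells, Hhip in most cells at each age, and Il6, Mmp3 and C3 in few cells even at P21.

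What remained of these transcripts at P21 was concentrated in a few cells. The 5 cells with the most reads held 73.3% and 70.7% of all Actg2 reads in the P21 female and male, and 57.0% and 76.9% of the Myh11 reads. For Hhip the 5 highest cells held 24.0% and 27.4%. Every P21 cell with an Actg2 read also had an Hhip read, 19 of 19 in the female and 18 of 18 in the male. Nearly the same held without Actg2, where 94.9% and 94.6% of the P21 cells had an Hhip read.

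Fewer contractile genes were also read per cell, alongside fewer genes of any kind. Of the 24 genes, the median P7 cell had a read for 20 in each mouse, and the median P21 cell for 12.5 in the female and 10 in the male. Taking as a mark the tenth percentile of P7 cells, which is 15 genes, 93.3% and 92.1% of the P7 cells and 29.3% and 20.4% of the P21 cells were at or above it. The P21 cells ranged from 0 to 22 genes, so that some reached the P7 range. At the same depth the medians of all genes per cell were 3159 and 2990 at P7 and 1886.5 and 1738.5 at P21, and those of the 21 elastic fibre genes were 13 and 13 and then 8 and 7, so a lower number per cell was not particular to the contractile list. Within a mouse the number of contractile genes per cell went with the number of all genes per cell, with Spearman's rho of 0.49 to 0.84 over 54 to 75 cells. Cells of a mouse share library preparation, and the part of the lower gene number in the contractile counts was not tested. The 20 and 20 genes at P7 were also what the other early cells showed, with medians of 19 and 20 at P1 and 20 and 21 in hyperoxia.

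**Figure D3:**
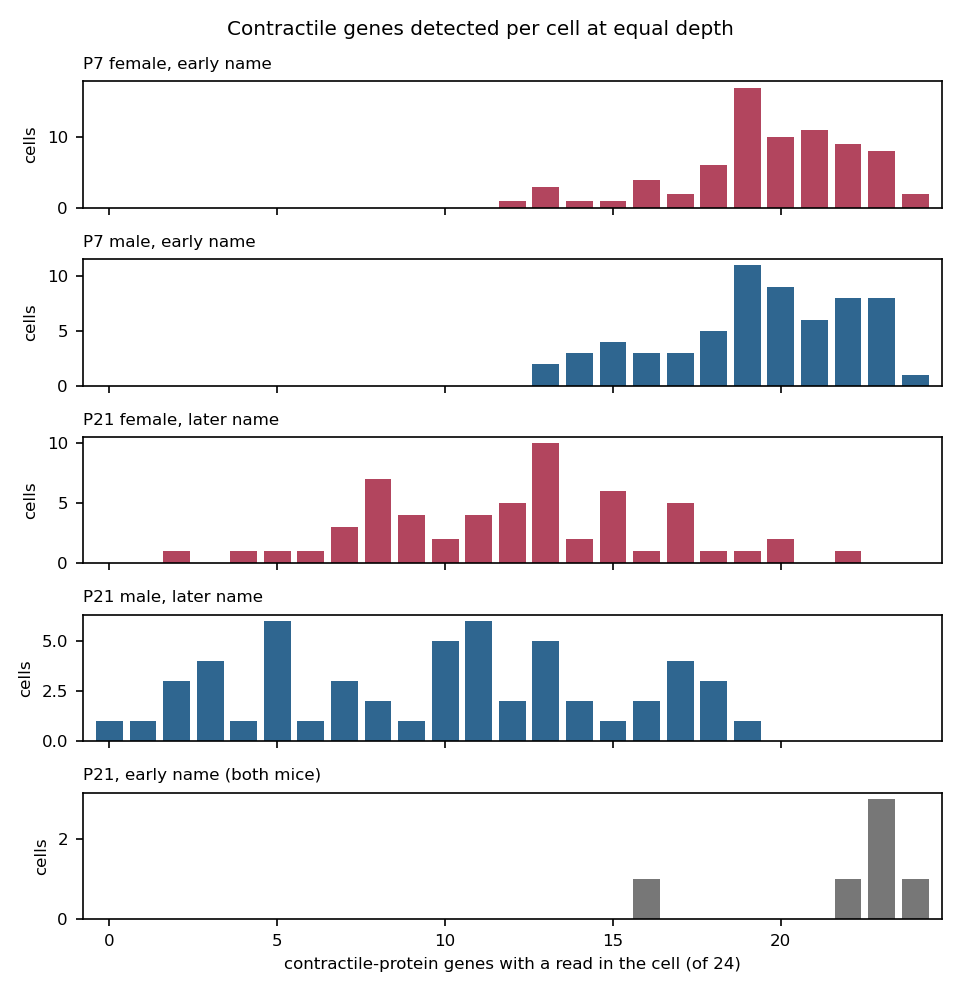
Number of cells (vertical axis) by how many of the 24 contractile genes had a read at 100000 reads per cell, with 1 panel for each P7 and P21 mouse and 1 for the 6 early-labelled cells at P21. The P7 cells gather around a median of 20 genes, and the P21 cells spread around medians of 12.5 and 10.

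The 6 cells at P21 that kept the early label stood at the other end. Their summed levels of Cnn1 were 5501 CPM (4 cells of the female) and 2877 CPM (2 cells of the male) without TMM scaling, of Acta2 22784 and 20439.8 CPM, of Myh11 2749 and 2963 CPM and of Des 3371 and 1963 CPM. These exceed the levels in the P7 cells of either mouse for all 4 genes. Actg2 did not follow, with 4079.8 and 2581.7 CPM in them and 3181.8 and 4167.5 CPM in the P7 cells (unscaled). Neither of its values exceeded both P7 mice. They had reads for a median of 23 and 19 of the 24 contractile genes. Actc1, the cardiac-type actin, was at 21714 and 7904 CPM in them (unscaled). Of the 4 female cells, 1 came from a plate whose title does not name the mesenchymal sort, and they were split between runs DC21 and DC23. With 4 and 2 cells these are values of few cells, and no test was made.

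The same genes were read in vascular smooth muscle cells of the same mice, given here on the unscaled CPM scale. Acta2 was at 21088 and 16562 CPM there at P7 and at 14286 and 18758 CPM at P21, with overlapping ages. Myh11 was at 706 and 1008 CPM at P7 and at 1250.2 and 1204 CPM at P21. Cnn1 was at 888 and 490.4 CPM at P7 and at 685 and 549.9 CPM at P21. The difference between the classes in the change with age did not pass for Cnn1 (q = 0.0555), Acta2 (q = 0.0776), Actg2 (q = 0.163) or Myh11 (q = 0.256). The 6 early-labelled airway cells at P21 were not part of this test.

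Among myocardin, SRF and other regulators of contraction, 1 of 21 genes rose and 2 fell, with a median log2 fold change of 0.36. Myocd, which encodes myocardin, was at 688 and 628 CPM at P7 and at 228 and 169.7 CPM at P21 (log2 fold change -1.74, SE 0.322, q = 0.0390). Its call was lost when any of the 8 mice was left out, with adjusted p from 0.0578 to 0.372, and on joining the early cells at P21 (0.312). Rgs5, a regulator of G protein signalling better known from pericytes, fell from 193 and 259 CPM to 37.6 and 34.9 CPM (q = 0.0213, but 0.143 without the P7 female, 0.153 without the P7 male and 0.0856 without the P21 male). Its relative Rgs2, which damps signalling from receptors coupled to Gq, rose from 767 and 852 CPM to 4109 and 6349.8 CPM (log2 fold change 2.63, SE 0.347, q = 0.00990, and 0.108 without the P7 male). Neither the ion channel and calcium list (0 of 21 genes, median log2 fold change -1.69) nor the list of receptors of airway and vessel tone (0 of 18, median 1.08) had a member that passed. The ATP-sensitive potassium channel subunit Kcnj8 was at 560.4 and 573 CPM and at 517 and 466 CPM (log2 fold change -0.20, q = 0.869).

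Hhip, the hedgehog-interacting protein, rose. It is a membrane protein that binds hedgehog ligands and so limits the pathway, and is itself a target of it. Its levels were 920.1 and 1367 CPM at P7 and 6126 and 6791 CPM at P21, a 5.65-fold difference of the means (log2 fold change 2.53, SE 0.323, q = 0.00868). Both P21 mice were above both P7 mice, and the P1 and hyperoxia libraries (817, 957, 797 and 1413 CPM) lay at the P7 level. Without the P7 female or the P7 male the adjusted p was 0.0924 or 0.0685. It was the only one of 12 hedgehog pathway genes to pass. The receptor Ptch1 was at 140.1 and 97.8 CPM and then 58.4 and 61.6 CPM (q = 0.563), and the transcription factor Gli1, a usual readout of the pathway, at 22.0 and 17.0 CPM and then 1.50 and 10.4 CPM (q = 0.603). In vascular smooth muscle Hhip had 1 read at P7 and 1 read at P21. In alveolar fibroblasts it was at 307 and 305 CPM at P7 and 78.0 and 101 CPM at P21, on the scale of the fit with that class. Adventitial fibroblasts held it at 216 and 292 CPM at P7 and at 120 and 185 CPM at P21 (unscaled).

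The Hhip promoter is shown because Hhip is the airway marker that rose. It is the RefSeq sequence from 250 bases before to 50 after the start of the gene (GRCm38.p6, chr8:80057959-80058258, minus strand, printed 5′ to 3′ along the gene). The capitals mark a match to the cAMP response element TGACGTCA, at bases 176 to 183 of the window.
Hhip: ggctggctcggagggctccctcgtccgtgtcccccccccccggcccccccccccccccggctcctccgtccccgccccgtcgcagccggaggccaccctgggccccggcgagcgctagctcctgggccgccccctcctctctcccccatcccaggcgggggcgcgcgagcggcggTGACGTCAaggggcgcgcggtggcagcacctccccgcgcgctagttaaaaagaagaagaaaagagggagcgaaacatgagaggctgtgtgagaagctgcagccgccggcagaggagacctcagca
This motif was found in 1.79% of all 32851 promoters of the table, on either strand, and in 3.60% of the 10216 promoters of genes tested. Among the genes that rose it was found in 5 of the 87 with a promoter in the table (Btg2, Ccnl1, Errfi1, Has1 and Hhip, 5.75%) and among those that fell in 0 of 47. A match is a description of the letters and not evidence of binding.

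Of 21 elastic fibre genes tested, 5 fell (Eln, Fbn2, Mfap2, Mfap4 and Ltbp2), 1 rose (Ltbp4) and 15 did not pass, with a median log2 fold change of -1.05. Ltbp2, a protein of the fibrillin microfibrils, was at 1554 and 1278 CPM at P7 and at 109 and 117 CPM at P21 (log2 fold change -3.64, SE 0.367, q = 0.00416). Fbn2, fibrillin-2, which is typical of developing tissue, was at 79.6 and 91.6 CPM and then at 0.191 and 0.0273 CPM. Mfap4 went from 1789 and 2340.4 CPM to 285 and 141 CPM (log2 fold change -3.40, q = 0.00733), and Mfap2, a small microfibril glycoprotein, from 2016 and 1712 CPM to 224 and 464 CPM (log2 fold change -2.49, q = 0.0171). Eln itself, tropoelastin, was at 2919 and 2458 CPM at P7 and at 950.0 and 944 CPM at P21 (log2 fold change -1.50, SE 0.297, q = 0.0476). Ltbp4, which binds latent TGF-beta and assists elastin assembly, rose from 238 and 248 CPM to 899.7 and 779 CPM (log2 fold change 1.79, q = 0.0393).

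The calls of Eln and Ltbp4 were near the threshold. That of Eln was lost with each single mouse left out (adjusted p 0.0576 to 0.441) and with size factors in place of TMM (0.0523), and that of Ltbp4 was lost with each mouse left out (0.0566 to 0.398). Mfap2 missed the threshold without the P7 female (0.106). Ltbp2 passed in all 15 alternatives, and Fbn2 and Mfap4 in all but the fit on 4 mice alone (0.0612 and 0.0662).

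Interstitial collagens showed no common direction, with 1 of 23 genes lower (Col12a1) and a median log2 fold change of -0.09. Col12a1, a collagen that sits on the surface of other fibrils, was at 445 and 465 CPM at P7 and at 90.2 and 96.6 CPM at P21 (q = 0.0158, but 0.121 without the P7 female, 0.110 without the P7 male and 0.0549 without the P21 male). Col3a1 was at 3171 and 2954 CPM and then 7627 and 8924 CPM (log2 fold change 1.42, q = 0.0577), which did not pass. Of 20 basement membrane genes and 15 integrin subunits none passed. The basement membrane collagen Col4a1 was at 749 and 656 CPM at P7 and at a mean of 164 CPM (SD 48.3, n = 2) at P21 (edgeR q = 0.0516).

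Matricellular proteins and proteoglycans moved in opposite directions, with 4 of 18 higher and 4 lower. The 4 that fell are known from developing or healing matrix. Tgfbi, a secreted protein that binds collagen and integrins, was among the most abundant transcripts at P7 with 8890.4 and 7730.0 CPM and stood at 962 and 972 CPM at P21 (log2 fold change -3.11, SE 0.349, q = 0.00520). Tnc, tenascin-C, went from 1465 and 1288 CPM to 115 and 177 CPM (q = 0.00541), and the proteoglycan Vcan, versican, from 284 and 529 CPM to 14.6 and 37.8 CPM (q = 0.0114). Postn, periostin, had the steepest fall, from 1579 and 1105 CPM to 0.263 and 7.11 CPM (log2 fold change -9.05, SE 1.27, q = 0.0114), with a read in 94.7% and 89.1% of P7 cells and in 3.45% and 5.45% of P21 cells. The early-labelled cells at P21 still held Postn at 855 and 736 CPM (unscaled), and with them joined the log2 fold change was -4.44. Without the P7 male the adjusted p of Vcan was 0.0532.

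Among the 4 that rose, Dcn, decorin, a small proteoglycan on collagen fibrils, was at 0.213 and 6.95 CPM at P7 and at 1165 and 1574 CPM at P21 (log2 fold change 9.19, SE 1.30, q = 0.0118). Prelp, a proteoglycan of the same family, rose from 10.6 and 22.1 CPM to 1095 and 646 CPM (log2 fold change 5.68, SE 0.583, q = 0.00416) and passed in all 15 alternatives. Ogn, osteoglycin, rose from 121 and 102 CPM to 921 and 989 CPM (q = 0.0177). Thbs1, thrombospondin-1, which can activate latent TGF-beta, went from 1490.0 and 1244 CPM to 6509.7 and 5424 CPM (q = 0.0155). Ogn and Thbs1 missed the threshold without the P7 female (0.134 and 0.113) and without the P7 male (0.0682 and 0.210), and Ogn also without the P21 male (0.0753).

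Lum, lumican, belongs to the same proteoglycan family and is on the list of fibroblast markers. It had 0 CPM in the P7 female and 11.1 CPM in the P7 male, all of it from 1.56% of the male's cells, and it stood at 2471 and 3674 CPM at P21, in 67.2% and 76.4% of the cells. The groups did not overlap, yet with the P7 mice at 0 and 11.1 CPM the difference did not pass in edgeR (log2 fold change 11.07, SE 2.999, q = 0.166), while it passed in DESeq2. Adventitial fibroblasts of the same mice held Lum at 595 and 481 CPM at P7 and at 1733 and 1479 CPM at P21 (unscaled), and vascular smooth muscle held 3 reads at P21. At P21 Lum was read in 78.9% and 88.9% of the cells with an Actg2 read and in 61.5% and 70.3% of those without. With a Myh11 read the shares were 66.7% and 90.0%, and without it 67.6% and 68.6%, so the female showed no such difference. Cells were not thinned to equal depth for these shares. Dcn was read in 71.8% and 59.5% of the cells with Lum and in 15.8% and 38.5% of the cells without. Dcn was at 9881 and 12392 CPM in adventitial fibroblasts at P21 and at 956 and 1282 CPM in the P21 cells on the same unscaled scale.

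Over the 12 myofibroblast and fibroblast markers, the summed level was 540 and 543 CPM at P7 and 4801 and 7037 CPM at P21. Lum and Dcn, whose levels are given above, make up most of the P21 sums. Of the 10 tested, 2 rose (Dpt and Dcn), none fell and 8 did not pass. The median log2 fold change of the 10 was 1.66, and 8 of their fitted changes were above 0. Some members did not rise. Ly6a had 0 reads in all 4 libraries. Pdgfra, a defining receptor of fibroblasts, was at 37.9 and 9.96 CPM at P7 and at 17.2 and 1.34 CPM at P21. Tcf21, a transcription factor of lung fibroblasts, was at 2.20 and 0.136 CPM and then at 7.88 and 0 CPM. The part of fibroblast RNA in the rise of Dcn, Prelp, Ogn and Lum was not tested. The summed level of 12 vascular smooth muscle and pericyte markers was 2567 and 2243 CPM at P7 and 1079 and 893 CPM at P21. That list holds Postn, which most P7 airway cells carried, and its large fall, given above, enters this sum. Of the 10 tested members, 2 fell (Rgs5 and Postn). The sum of 10 striated muscle markers was 314 and 1205 CPM and then 219 and 52.3 CPM. Actc1 by itself was at 322 and 1163 CPM at P7 and at 174 and 42.2 CPM at P21 (unscaled), in 52.0% and 53.1% of the P7 cells.

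**Figure D4:**
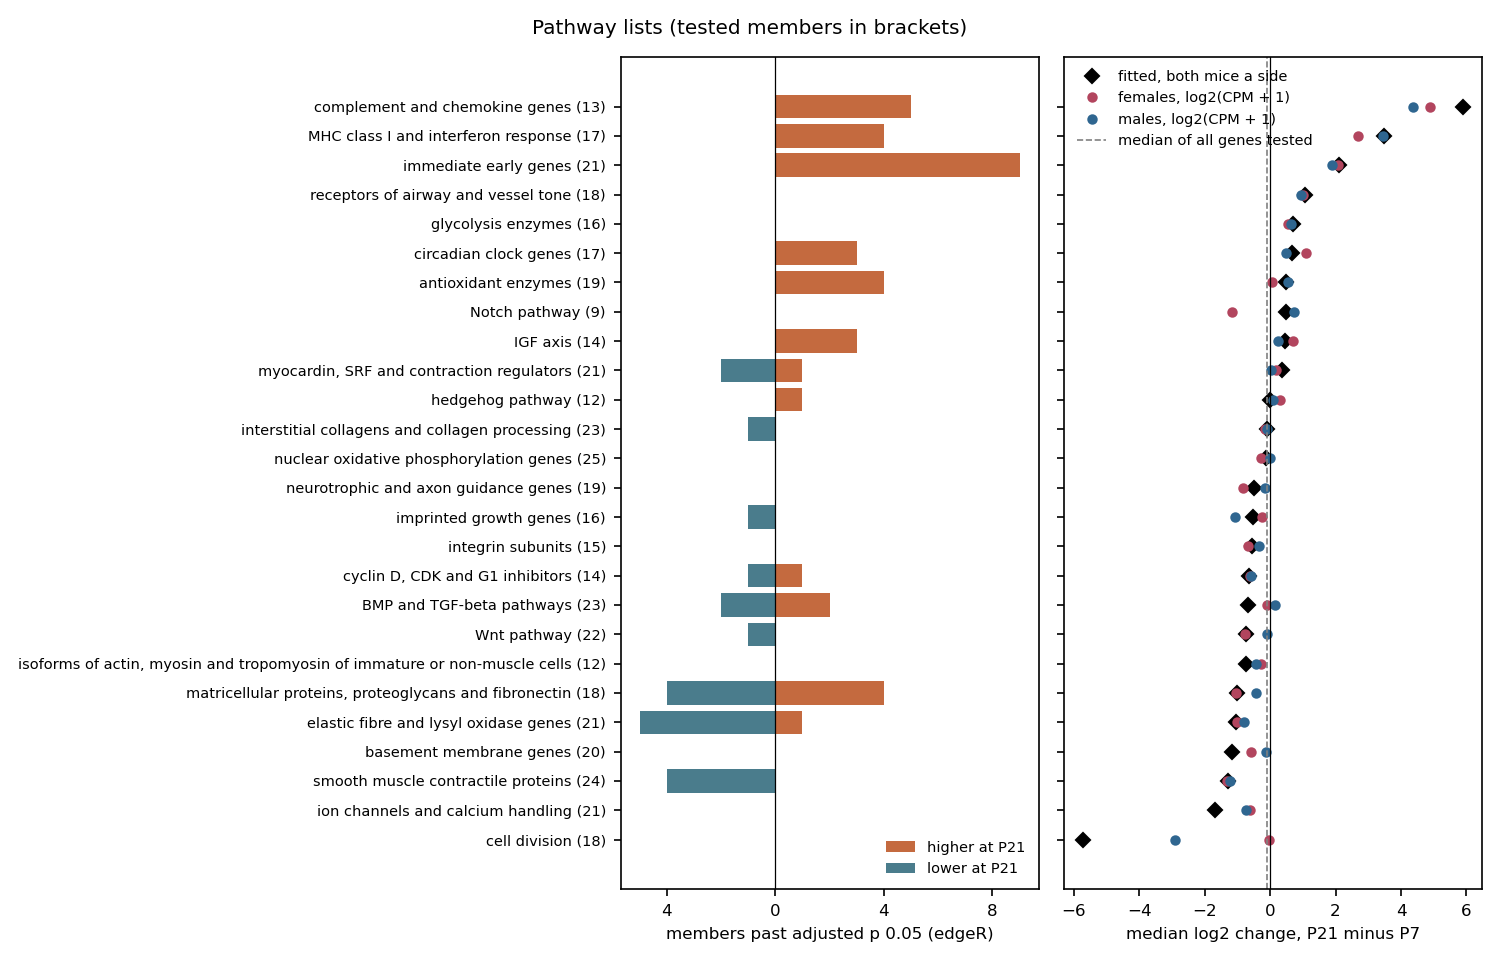
Each of the 26 pathway lists with its number of tested members: on the left the members that rose (to the right of 0) or fell (to the left) at an edgeR adjusted p under 0.05, and on the right the median log2 change from the fit (diamonds) and of the female and male pair on the log2(CPM + 1) scale (points), with a dashed line at the median of all genes tested, -0.11. The complement and chemokine list has the highest fitted median, 5.90, over the 13 of its 19 members that were tested, and the contractile list lies at -1.28.

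Immediate early genes respond within minutes to stimuli and also to tissue dissociation. Of the 21 tested, 9 rose (Fos, Jun, Junb, Egr1, Atf3, Ier2, Nr4a1, Nr4a2 and Zfp36), none fell, and all 21 fitted changes were above 0, with a median log2 fold change of 2.10. Atf3, a stress-induced transcription factor, was at 143 and 230.2 CPM at P7 and at 4423 and 3727 CPM at P21 (log2 fold change 4.48, SE 0.379, q = 0.00171). Zfp36, which encodes tristetraprolin and shortens the life of cytokine mRNAs, rose from 384 and 375 CPM to 3694 and 3347 CPM (log2 fold change 3.22, SE 0.343, q = 0.00476). Fos, a partner in AP-1, was already at 5196 and 3298 CPM at P7 and reached 16595 and 12312 CPM (log2 fold change 1.77, SE 0.338, q = 0.0414). The number of these genes with a read per cell differed little, with medians of 13 and 11 at P7 and 14 and 12 at P21 (exact two-sided permutation test over the mice, p = 0.667, where 0.333 is the smallest possible). Medians of all genes per cell at the same depth were lower at P21, with 3159 and 2990 at P7 and 1886.5 and 1738.5 at P21.

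The 9 calls were unevenly firm. Atf3 and Zfp36 passed in all 15 alternatives. Without the P7 male the other 7 had adjusted p from 0.0980 (Junb) to 0.535 (Fos), and without the P7 female from 0.0639 (Junb) to 0.388 (Nr4a2). The whole list held 2 to 15 called members over the alternatives. Atf3 was nearly absent from the 6 early-labelled cells at P21, with 0.979 and 0 CPM (unscaled). Vascular smooth muscle of the same mice held Atf3 at 221 and 157 CPM at P7 and at 872 and 638 CPM at P21, on the scale of the fit of both classes. The difference between the classes in the change with age did not pass in edgeR (q = 0.475). The time from dissection to sorting is not given in the sources used here, and the part of handling in these levels was not tested.

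Complement, chemokine and cytokine genes were the list with the highest fitted median, 5.90, with 5 of 13 tested genes higher (C3, Serping1, Ccl2, Cxcl1 and Il6) and none lower. Only 13 of its 19 members were tested. Members with almost no reads at P7 stayed in the test through their P21 reads. A high median is therefore partly built in, and its size depends on the prior count. On the log2(CPM + 1) scale the female and male medians were 4.88 and 4.37. Cxcl1, a neutrophil-attracting chemokine, rose from 10.7 and 26.4 CPM to 835 and 917 CPM (log2 fold change 5.55, SE 0.650, q = 0.00612). Il6, interleukin-6, had 1 read over both P7 mice and 41155 reads over both P21 mice, at 392 and 676 CPM (q = 0.0187, but 0.0912 without the P7 female and 0.0513 without the P7 male). Ccl2, a monocyte-attracting chemokine, had 0 reads at P7 and 49.8 and 226 CPM at P21, which is at least 7862-fold higher over the 2 mice together (q = 0.0155). C3, the central complement component, was at 0 and 0.0606 CPM and then at 227 and 173 CPM (q = 0.0109, and 0.0543 without the P21 male). Serping1, an inhibitor of complement C1, was already broad at P7 with 345 and 289.6 CPM and rose to 2266 and 2398 CPM (q = 0.0141, but 0.0639 without the P7 female and 0.129 without the P7 male).

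Apart from Serping1, these transcripts came from few cells. At P21 Il6 was read in 15.5% and 21.8% of the cells and Ccl2 in 5.17% and 9.09%, that is, in 3 and 5 cells. The 5 highest cells held 100% of the Ccl2 reads in each mouse, 99.8% and 99.9% of the C3 reads, 97.9% and 86.9% of the Il6 reads, and 85.3% and 69.8% of the Cxcl1 reads. The summed level of such a gene rests on a handful of cells per mouse. Serping1 was read in 94.8% and 87.3% of the P21 cells. Immune markers, summed over 11 genes, were at 2.19 and 1.30 CPM at P7 and at 0.143 and 11.3 CPM at P21, and C1qa had 0 reads in all 4 libraries.

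Among genes of antigen presentation and the interferon response, 4 of 17 rose (B2m, H2-K1, Irf1 and Ifitm3), with none lower and a median log2 fold change of 3.48. Irf1, an interferon-induced transcription factor, rose from 117 and 75.8 CPM to 2266 and 962 CPM (log2 fold change 4.02, SE 0.436, q = 0.00485) and passed in all 15 alternatives. Ifitm3, a membrane protein against virus entry, went from 278 and 254 CPM to 1516 and 4308 CPM (q = 0.0117, and 0.103 without the P7 male). B2m, the light chain of MHC class I, went from 304 and 340.5 CPM to 881 and 2008 CPM (q = 0.0393), and its call was lost without 6 of the 8 mice in turn (adjusted p 0.0577 to 0.394), the exceptions being the P21 female and the P1 male. H2-K1, an MHC heavy chain with near-identical relatives, was at 15.6 and 19.7 CPM and then at 515 and 225 CPM (q = 0.0101, and 0.0850 without the P7 female).

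Promoters of 3 genes from these lists are shown because they carry motifs of regulators known for such genes: the CArG box, bound by serum response factor, in the immediate early gene Zfp36, and NF-kB sites in the cytokine genes Il6 and Cxcl1. They are RefSeq sequences of GRCm38.p6 printed along the gene, for Zfp36 chr7:28379179-28379478 on the minus strand, for Il6 chr5:30012864-30013163 and for Cxcl1 chr5:90890995-90891294 on the plus strand. Capitals mark a CArG box in Zfp36 (bases 193 to 202), an NF-kB site (bases 207 to 216) and an AP-1 site TGANTCA (bases 2 to 8) in Il6, and a pair of overlapping NF-kB matches (bases 180 to 189 and 181 to 190) in Cxcl1.
Zfp36: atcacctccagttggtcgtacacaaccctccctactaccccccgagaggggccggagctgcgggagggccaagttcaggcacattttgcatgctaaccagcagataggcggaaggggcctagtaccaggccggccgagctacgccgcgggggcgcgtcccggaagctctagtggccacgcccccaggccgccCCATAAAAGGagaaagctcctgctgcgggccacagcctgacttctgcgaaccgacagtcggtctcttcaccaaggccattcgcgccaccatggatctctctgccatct
Il6: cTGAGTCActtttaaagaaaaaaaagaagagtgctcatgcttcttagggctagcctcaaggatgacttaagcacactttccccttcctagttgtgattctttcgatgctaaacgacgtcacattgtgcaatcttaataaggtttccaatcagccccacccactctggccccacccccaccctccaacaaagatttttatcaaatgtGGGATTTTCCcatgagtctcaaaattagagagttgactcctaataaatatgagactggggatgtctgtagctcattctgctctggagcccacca
Cxcl1: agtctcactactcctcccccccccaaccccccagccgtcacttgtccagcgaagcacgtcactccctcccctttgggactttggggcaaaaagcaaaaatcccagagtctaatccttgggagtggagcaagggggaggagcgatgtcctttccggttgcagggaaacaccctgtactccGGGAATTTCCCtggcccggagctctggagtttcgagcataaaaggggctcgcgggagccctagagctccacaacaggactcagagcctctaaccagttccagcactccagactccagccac
Over all 32851 promoters, on either strand, 1.63% held a CArG box, 4.51% an NF-kB site and 7.81% an AP-1 site. Among the 10216 genes tested with a promoter in the table the shares were 1.64%, 6.14% and 5.87%. Of the 87 matched genes that rose, 14 held an NF-kB site (16.1%), 10 an AP-1 site (11.5%) and 1 a CArG box, Zfp36. Of the 47 matched genes that fell, 6 held an NF-kB site (12.8%), 2 an AP-1 site (Ifitm10 and Lrrc15) and 2 a CArG box (Fhl2 and Filip1l). The windows of Cnn1 and Acta2 held no exact match to any of the 4 motifs, which says nothing of inexact sites within them or of sites elsewhere. No test was made on these shares.

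Antioxidant genes had 4 of 19 higher and none lower, with a median log2 fold change of 0.49. Mt1, a metallothionein that binds zinc and copper, rose from 8.20 and 10.1 CPM to 2361 and 8046 CPM (log2 fold change 9.06, SE 1.04, q = 0.00554). Its neighbour in sequence Mt2 went from 0 and 0.500 CPM to 132 and 468 CPM (q = 0.0101). Reads of the pair may have been shared. Gpx3, a secreted glutathione peroxidase, rose from 60.7 and 48.7 CPM to 2844 and 4083 CPM (log2 fold change 6.06, SE 0.803, q = 0.00990). Sod3, extracellular superoxide dismutase, was in 80.0% and 75.0% of P7 cells, in every cell of the P21 female and in 90.9% of those of the P21 male, at 295 and 236 CPM and then at 1605 and 2397 CPM (q = 0.0114, but 0.0639 without the P7 female and 0.108 without the P7 male). Mt1 and Gpx3 passed in all 15 alternatives.

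In the IGF axis 3 of 14 genes rose, all of them binding proteins that hold insulin-like growth factors outside the cell. Igfbp3 went from 23.8 and 25.3 CPM to 1613 and 3054 CPM (log2 fold change 6.72, SE 1.06, q = 0.0178), Igfbp5 from 175 and 79.6 CPM to 2464 and 3203 CPM (q = 0.0170) and Igfbp7 from 122 and 210.2 CPM to 1272 and 1507 CPM (q = 0.0170). Each of the 3 missed the threshold without at least 1 mouse. Without the P7 female the adjusted p of Igfbp3 was 0.0606 and that of Igfbp7 0.133, without the P7 male that of Igfbp5 was 0.0669 and that of Igfbp7 0.0846, and without the P21 male that of Igfbp3 was 0.0594.

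Among 14 genes of cyclin D, its kinases and their inhibitors, 1 rose and 1 fell. Cdkn1a, which encodes the cell cycle inhibitor p21, rose from 130.1 and 23.1 CPM to 2089.9 and 3984 CPM (log2 fold change 5.73, SE 0.795, q = 0.0111), from 16.0% and 4.69% of cells to 87.9% and 85.5%. Ccnd2, cyclin D2, which drives entry into the cycle, fell from 296 and 271 CPM to 37.7 and 31.1 CPM (log2 fold change -3.04, SE 0.394, q = 0.00944, and 0.0560 without the P7 female). The cell division list had 0 of 18 members past the threshold and a median of -5.73, but its members had few cells behind them: Top2a was at 0.0177 and 101 CPM at P7, and the female and male medians of the list were -0.05 and -2.92 on the log2(CPM + 1) scale. Over the alternatives the list's median ran from -8.42 to 0.35. The imprinted gene Nnat, neuronatin, fell from 354 and 358 CPM to 2.46 and 12.3 CPM (q = 0.00888) and was the only one of 16 imprinted growth genes to pass. In the early-labelled cells at P21 it was at 4.57 CPM in the female and 1769 CPM in the male (unscaled), and with those cells joined its adjusted p was 0.515.

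Circadian clock genes had 3 of 17 higher, Bhlhe40, Per1 and Nr1d1, and none lower. Bhlhe40, a transcriptional repressor that also answers to hypoxia and cytokines, rose from 15.3 and 7.55 CPM to 399.8 and 387 CPM (log2 fold change 5.11, SE 0.616, q = 0.00707) and passed in all 15 alternatives. Per1 and Nr1d1 had q of 0.0178 and 0.0393, and both missed the threshold without either P7 mouse (adjusted p 0.0553 to 0.254), and Nr1d1 also without either P21 mouse (0.0839 and 0.0728). The hour of collection is not given in the sources used here, and its part was not tested.

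Among BMP and TGF-beta pathway genes, Id3, a BMP target, rose from 814 and 805 CPM to 2164 and 5044 CPM (q = 0.0476). Its relative Id2 fell from 1078 and 1439 CPM to 349.7 and 476 CPM (q = 0.0424), and the BMP binding protein Bmper from 91.7 and 53.4 CPM to 0.286 and 0 CPM (q = 0.0364). Each of these 3 missed the threshold without the P7 female (adjusted p 0.167 to 0.323) and without the P7 male (0.0682 to 0.431). In the Wnt pathway Sfrp2, a secreted Wnt inhibitor, was the only one of 22 to pass, falling from 71.2 and 86.3 CPM to 0.0477 and 0 CPM (q = 0.00416). Lgr5, a receptor for R-spondins, was at 2.60 and 0.106 CPM and then at 155 and 72.0 CPM (log2 fold change 6.55, q = 0.194), in 25.9% and 34.5% of the P21 cells.

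**Figure D5:**
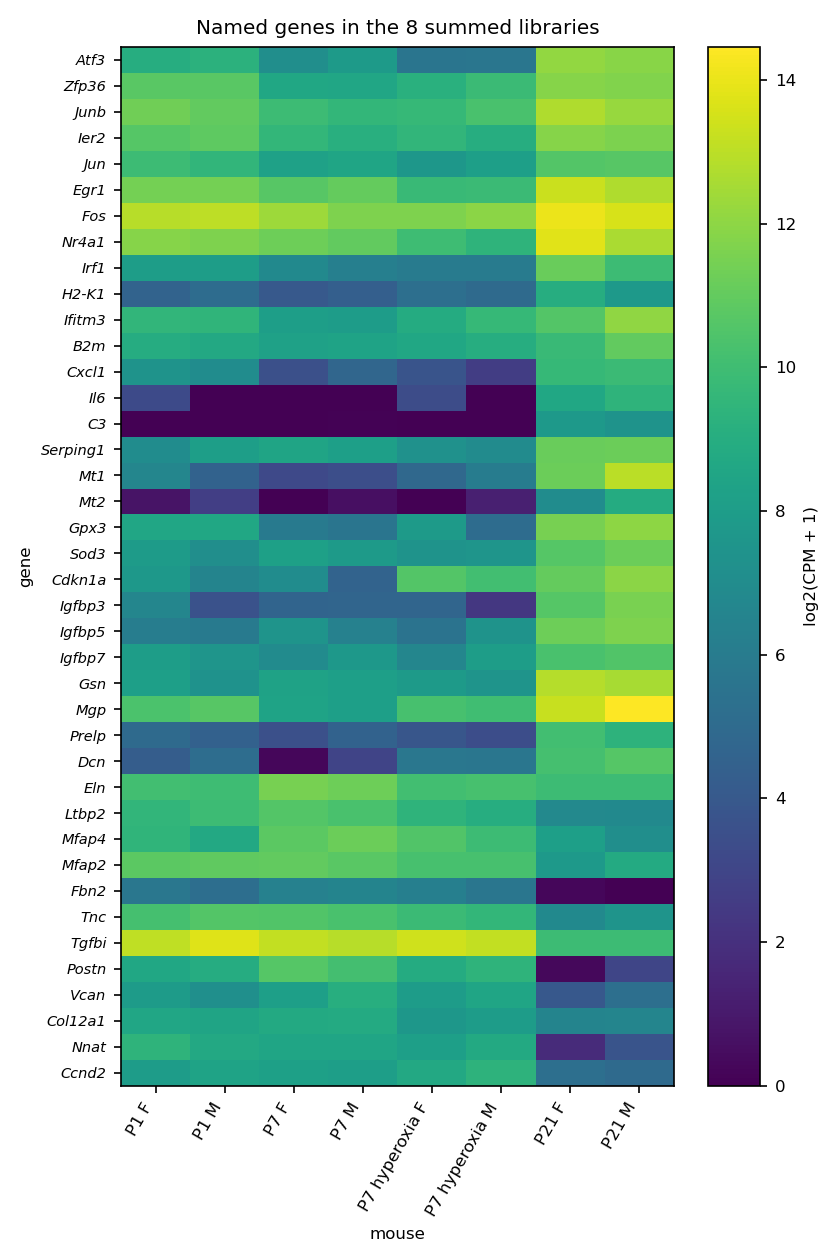
Levels of named genes in the 8 summed libraries, as log2(CPM + 1), with 2 mice each for P1, P7, P7 in hyperoxia and P21. Tgfbi is lower in both P21 columns than in both P7 columns, and Gsn and Mgp are higher there.

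By the rule of largest change, the 12 genes that rose most were Il6, Itih4, Mmp3, Ccl2, Rtp4, Ms4a4d, Steap3, C3, Mt2, Cyp2e1, Dcn and Tnfsf9. Most of them started from 0 reads or almost none. Mmp3, a matrix metalloproteinase, had 0 reads at P7 and 41.3 and 796 CPM at P21, at least 23446-fold higher (q = 0.00171), with 94.2% and 90.1% of its reads in 5 cells. Itih4, a secreted protein of the inter-alpha-trypsin inhibitor family, had 0 reads at P7 and 123 and 132 CPM at P21, at least 7568-fold higher (q = 0.0348). Cyp2e1, a cytochrome P450 that metabolizes small molecules such as ethanol, differed from these in its breadth. It was at 0.930 and 2.24 CPM in 5.33% and 6.25% of P7 cells and at 1357 and 1227 CPM in 70.7% and 69.1% of P21 cells (log2 fold change 9.87, SE 1.59, q = 0.0198). Without the P7 female and the P7 male in turn, the adjusted p of Itih4 was 0.131 and 0.0682 and that of Cyp2e1 0.0869 and 0.0682. Without the P21 male that of Mmp3 was 0.194 and that of Rtp4 0.300. Of the 12, Ccl2, Mt2 and Dcn kept their calls with each of the 8 mice left out in turn.

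The 12 that fell most were Wisp1, Eva1a, Npy4r, Asrgl1, Emilin3, Inka1, Lrrc15, Sfrp2, Ncs1, Sfrp4, Zfp40 and Fam167a. Wisp1, a matricellular protein of the CCN family induced by Wnt signals, was at 95.7 and 84.3 CPM at P7, in 34.7% and 26.6% of the cells, and had 0 reads at P21, at least 2394-fold lower (q = 0.00332). Lrrc15, a membrane protein of activated mesenchymal cells, was at 491 and 554 CPM in 74.7% and 79.7% of P7 cells and at 0.167 and 0 CPM at P21 (q = 0.00416), and passed in all 15 alternatives. Sfrp4, like Sfrp2 a secreted Wnt inhibitor, was at 58.2 and 24.7 CPM and then at 0.0239 and 0 CPM (q = 0.0393, and 0.0621 to 0.244 without each of 6 mice in turn). Npy4r, a receptor of the neuropeptide Y family, had 0 reads at P21 in the later-labelled cells but 147 and 1.77 CPM (unscaled) in the early-labelled ones, and its adjusted p was 0.497 with these joined. Of the 12, Wisp1, Lrrc15, Sfrp2, Ncs1 and Fam167a kept their calls with each of the 8 mice left out in turn.

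Broad rises in abundant transcripts were seen in genes named here after their values were seen. Gsn, gelsolin, which severs actin filaments, was at 326 and 290.0 CPM in 66.7% and 70.3% of the P7 cells and at 7427 and 5967 CPM in 98.3% and 98.2% of the P21 cells (log2 fold change 4.43, SE 0.347, q = 0.00167). Mgp, matrix Gla protein, an inhibitor of calcification, was at 329 and 283 CPM in 38.7% and 32.8% of the P7 cells and at 9575 and 22535 CPM in every P21 cell (log2 fold change 5.65, SE 0.479, q = 0.00171). Apoe, apolipoprotein E, rose from 166 and 131 CPM to 2236 and 2022 CPM (log2 fold change 3.85, SE 0.351, q = 0.00272). Errfi1, a feedback inhibitor of the EGF receptor, rose from 35.3 and 17.0 CPM to 1454 and 1099 CPM (log2 fold change 5.71, SE 0.445, q = 0.00167). These 4 passed in all 15 alternatives. Among the 22 genes that passed in every alternative were also Cebpd, Fmo2, Nfkbiz and Sdc4.

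Of the 26 pathway lists, 10 had no member past the threshold. Besides the lists of channels, receptors, basement membrane, integrins and cell division given above, these were the non-muscle and immature isoforms of actin, myosin and tropomyosin (0 of 12), the Notch pathway (0 of 9), nuclear oxidative phosphorylation genes (0 of 25), glycolysis enzymes (0 of 16) and neurotrophic and axon guidance genes (0 of 19). Glycolysis enzymes had 14 of 16 fitted changes above 0 and a median of 0.70, and Aldoa, an enzyme of that pathway, was at 236 and 277 CPM at P7 and at 815 and 1578 CPM at P21 (q = 0.0526). The oxidative phosphorylation list lay at -0.12, close to the -0.11 of all genes.

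The change from P7 to P21 was then compared with that in vascular smooth muscle, the other smooth muscle class of the same 4 mice (110 cells in all), by testing the difference of the changes itself, with a term for each mouse. The 6 early-labelled airway cells at P21 were left out, while the vascular class kept all its cells. CPM values in this comparison are on the scale of its own fit. Of 13165 genes 3 passed (0.0228%), and 554 had an unadjusted p under the threshold. DESeq2 called 539. Il6 rose more in the cells of the airway label, from 1 read to 41155, than in vascular cells, where it went from 16.7 and 18.0 CPM to 66.3 and 105 CPM (difference of the log2 changes 13.69, SE 1.17, q = 0.0433, but 0.0739 without the P21 female and 0.0759 without the P21 male). Kcnj8 was at 511 and 523 CPM at P7 and at 474 and 427 CPM at P21 in the cells of the airway label on the scale of this fit, and at 0.0340 and 0.0395 CPM and then 168 and 320 CPM in the vascular cells (difference -12.73, SE 0.862, q = 0.0179). Prss23, a secreted serine protease, was at 520 and 204 CPM and then at 1077 and 2371 CPM in the vascular cells and went from 1270 reads to 1 read in those of the airway label (difference -10.73, SE 0.971, q = 0.0433). Each of these 3 has a class and age at 1 or 2 reads, so the fitted size of the difference depends on the prior count. The differences of Cnn1 (-5.61, q = 0.0555) and Acta2 (-2.21, q = 0.0776) were below 0 and those of Mgp (4.38, q = 0.0776) and Mt1 (4.99, q = 0.0787) above 0, and none of the 4 passed.

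Against alveolar fibroblasts, early and later subtype joined, 0 of 14496 genes (0%) passed the interaction test in edgeR, where 953 had an unadjusted p under the threshold and DESeq2 called 707. Eln had the smallest p (difference of the log2 changes -4.72, SE 0.318, q = 0.0591). It fell in the cells of the airway label. In alveolar fibroblasts it stood at 585 and 422 CPM at P7 and at 4763 and 4568 CPM at P21, on the scale of this fit. For Hhip the difference was 4.32 (SE 0.364, q = 0.0801). Both differences passed in DESeq2. C3 was at 0 and 0.0268 CPM in alveolar fibroblasts at P7 and at 257 and 135 CPM at P21, beside 0 and 0.0561 CPM and then 216 and 162 CPM in the cells of the airway label on the scale of this fit (difference -0.94, SE 0.888, q = 0.929).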

How the data were processed

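Single mesenchymal cells of mouse distal lung had been sequenced in plates with a Tn5 protocol, per the labels' protocols. The deposited values are whole-number read counts per gene and cell that the authors had not normalized, for 18072 genes and 5480 cells, with 0 mitochondrial genes. Per the submitters' processing notes, STAR 2.5.2b, HTSeq 0.10 and the build GRCh38 are named. GRCh38 is a human build and the samples are mouse, so no gene coordinates are printed from the files. No molecular identifiers are named, so values count reads and not molecules. Strand, annotation and doublet treatment are not given in the sources used here, and no doublet caller was run.

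Subtype, age, sex, mouse and run came from the labels. Counts were summed per mouse and class. The test was edgeR's quasi-likelihood test, two-sided (version 4.0.16, R 4.3.3), with TMM normalization, filterByExpr and terms for sex and group (8 libraries, 3 residual degrees of freedom), with Benjamini-Hochberg adjustment over all genes tested and a threshold of 0.05. DESeq2 1.42.0 was an alternative. Mice of P7 and P21 are different animals, so ages were not paired. The interactions used the 4 mice of the comparison, with the mouse as a block. Both left out the 6 early-labelled airway cells at P21. Cells were thinned to 100000 reads for counts of genes per cell, which left out 5 cells of the 8 mice. The fits were tested on simulated data.

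Genes were named by rule: the 12 largest rises and the 12 largest falls among genes past the threshold with at least 10 CPM in P7 or P21 and the same direction in both sexes, the 4 members of each list with the smallest p and any member a count needs, all airway smooth muscle markers, and up to 4 genes per interaction. Others are said to be chosen after their values were seen. The comparison, members and lists were chosen with earlier results of these data known. A fold against 0 reads uses 3 reads over the group, and intervals and limits cover counting error only. Promoters were matched by symbol to the RefSeq table, for 87 of the 119 genes that rose and 47 of the 72 that fell. A result on 1 gene is not reported here.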

Additional observations from a re-analysis of the deposited data

Results flagged for a closer look

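The difference between airway and vascular smooth muscle in the change from P7 to P21, tested itself as an interaction in edgeR, singled out 3 genes. Kcnj8, a potassium channel subunit, had a difference of -12.73 on the log2 scale (airway minus vascular, adjusted p 0.0179). Nearly all of it lies in the vascular cells, which had 2 reads at P7 and 9426 at P21, the latter from 9.09% and 10.5% of their cells. Il6 had a difference of 13.69 (adjusted p 0.0433, but 0.0739 and 0.0759 without the P21 female and male), with 1 read in the cells of the airway label at P7. Prss23 had a difference of -10.73 (adjusted p 0.0433), with 1 read in the cells of the airway label at P21 and 1270 at P7, the latter from 4.00% and 1.56% of the cells. Each of the 3 rests on a group at 1 or 2 reads, where a fitted log2 value depends on the prior count and is no bound.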

How the results depend on the processing

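With 2 mice a side, counts of calls depend on the fit: of the 191 called genes, 22 were called in every one of 15 alternatives. None of the 191 changed direction. That adds little, since the P7 and P21 mice did not overlap in any of the 191 and the alternatives reuse the same mice. The count was 1280 with DESeq2, 313 with each cell thinned to 100000 reads, 53 (47 higher and 6 lower) on the 4 mice alone and 60 to 311 with each mouse left out in turn. The interaction with vascular smooth muscle gave 539 genes with DESeq2, 25 without a filter on low counts, 15 without the mouse block (with a term for sex) and 4 to 24 with a mouse left out. The interaction with alveolar fibroblasts gave 707, 11 and 13 genes under the same settings in that order, and 2 to 16 with a mouse left out. No paired analysis was possible for P21 against P7 because the ages hold different mice, and the mouse block exists only in the interactions. The median log2 fold change of all genes was -0.11 with TMM and -0.06 with size factors in its place. The called genes of the contractile list numbered 2 to 16, of the elastic list 1 to 10 and of the immediate early list 2 to 15.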
